A study of Homo sapiens with 7 samples.

Results

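In differentiating human cells, 1330 merged regions of the genome held an HNF6 region and an NKX6.1 region but no listed GATA6 region. They were chosen by joining the regions listed for HNF6 on day 10, GATA6 on day 10 and NKX6.1 on day 13 wherever these overlapped by 1 bp or more, which gave 77349 merged regions. Those that held an HNF6 and an NKX6.1 region and no listed GATA6 region were kept, and are called dual regions here. The choice used the measured lists themselves, so the values below are a description and carry no test.

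The cells were CyT49, an established human embryonic stem cell line, differentiated toward pancreas without any genetic change named in the labels. Chromatin immunoprecipitation and sequencing, which recovers the DNA bound by a protein with an antibody, was done for HNF6 and GATA6 on day 10 (labelled PE stage) and for NKX6.1 on day 13 (labelled PP stage). HNF6 was also profiled on day 5 (labelled GTE stage), and 3 inputs of days 5, 10 and 13 were not analysed here. Each factor and day had 1 library from 1 line, so the spread between cultures is unknown, and factor, day, antibody and library cannot be told apart. HNF6 and NKX6.1 were not profiled on the same day, so binding of both at 1 stage was not measured.

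HNF6, encoded by ONECUT1, is a cut-homeodomain factor that acts in early liver and pancreas development and takes part in forming endocrine progenitors. NKX6.1 is a homeodomain factor that marks multipotent pancreatic progenitors and, later, beta cells, whose identity it helps to keep. GATA6 is a zinc finger factor whose loss in humans can leave the pancreas unformed. Factors of this kind often occupy the same enhancers, each reading its own short DNA motif.

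Dual regions made up most of the merged regions with HNF6 and NKX6.1. Of the 2111 merged regions with both factors, 1330 had no listed GATA6 region, which was 63.0% (Wilson 95% interval 60.9 to 65.0), and 781 held all 3 factors. Among merged regions with HNF6 but no NKX6.1, 57319 had no listed GATA6 region and 5434 held GATA6. Regions without listed GATA6 were thus a smaller share of HNF6 regions where NKX6.1 was also present. The median HNF6 width was 314 bp in dual regions and 415 bp with all 3 factors. It was 253 bp with HNF6 alone and 355 bp with HNF6 and GATA6. These shares were not compared at equal width or score. All intervals here cover counting error only, because neighbouring regions are not independent samples. The dual regions drew on 1331 HNF6 regions, or 2.05% of that list, and on 1337 NKX6.1 regions, or 9.14% of that list. For comparison, 3.2% of all HNF6 regions overlapped an NKX6.1 region, and 14.3% of all NKX6.1 regions overlapped an HNF6 region. Nearly all were simple pairs: 1322 joined 1 HNF6 region with 1 NKX6.1 region, 7 held 2 NKX6.1 regions and 1 held 2 HNF6 regions. Together they covered 478 kb, with a median width of 327.5 bp and a range of 177 to 1166 bp.

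Absence of GATA6 means absence from a list that was partial. The GATA6 peak numbers ran to 19404, and 6285 of them (32.4%) were listed. Every listed GATA6 region fell in a merged region with HNF6. The 64864 merged regions with HNF6 and the 12485 with NKX6.1 alone made up all 77349. A missing number thus need not be a peak at an HNF6 region. Regions with NKX6.1 alone are therefore those without an HNF6 region, and whether unlisted GATA6 peaks lay there is unknown. How the list was chosen is not stated, and where the unlisted peaks lay was not tested. Peak numbers rose with position on every chromosome, so the numbers missing between neighbouring listed peaks give how many unlisted GATA6 peaks lay between them, if those follow the same order. At 170 dual regions (12.8%, 11.1 to 14.7) the GATA6 peaks on either side had consecutive numbers, which leaves no number for an unlisted GATA6 peak in between. At 535 dual regions 1 to 3 numbers were missing between the neighbours, and at 613 there were 4 or more. The other 12 did not lie between 2 listed peaks. The share with no missing number was 13.04% (12.8 to 13.3) for merged regions with HNF6 alone and 12.2% (11.7 to 12.8) for those with NKX6.1 alone, so dual regions were bracketed by consecutive numbers about as often as these.

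The authors' score ranks the peaks of a list, and it is given here as a percentile within its own list, since scores of different libraries cannot be set side by side. HNF6 was strong at dual regions: its score had a median of 162 (quartiles 76 and 412, range 13 to 3284), which is percentile 74.0 (95% order-statistic interval 71.6 to 76.4). This lay between regions with HNF6 alone, at percentile 46.8 (46.5 to 47.2), and regions with all 3 factors, at percentile 89.3 (86.5 to 90.7). Regions with HNF6 and GATA6 but no NKX6.1 were at percentile 81.8 (80.7 to 82.6). In the highest HNF6 decile stood 350 dual regions, or 26.3% (24.0 to 28.7), against 10% of the list by definition. The same share was 48.5% (45.0 to 52.0) with all 3 factors and 6.72% (6.51 to 6.92) with HNF6 alone. Weak HNF6 regions were present too, with 359 dual regions (27.0%, 24.7 to 29.4) below the list median.

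NKX6.1 was also stronger at dual regions than where it stood alone, by a smaller margin. Its score had a median of 70 (quartiles 42 and 125, range 13 to 867), which is percentile 63.8 (61.4 to 68.6) of its list. With all 3 factors the NKX6.1 percentile was 68.1 (63.2 to 72.8), an interval that overlaps that of the dual regions, and with NKX6.1 alone it was 47.7 (46.7 to 48.7). The HNF6 percentile thus separated dual regions from regions with all 3 factors, whereas the intervals of the NKX6.1 percentile did not. In the highest NKX6.1 decile stood 220 dual regions, or 16.5% (14.6 to 18.6), against 10% of the list. A wider region can meet a region of another list more easily by its length alone. Score and width had a rho of 0.74 for HNF6 and 0.58 for NKX6.1 across dual regions. Neither factor was compared with its regions alone at equal width, so the part of width was not tested.

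**Figure D1:**
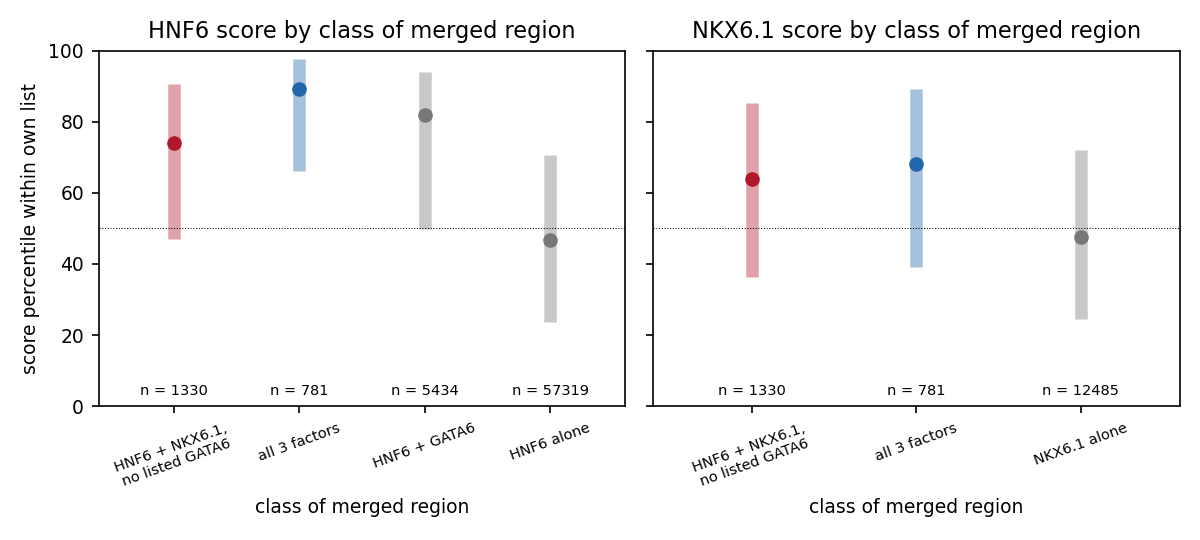
Score percentile within its own list (vertical axis) of HNF6 (left) and NKX6.1 (right) for each class of merged region. Points are medians, bars run from the first to the third quartile, and n is the number of regions; for HNF6 the dual regions, at percentile 74.0, lie between HNF6 alone (46.8) and all 3 factors (89.3), and for NKX6.1 the dual regions (63.8) and all 3 factors (68.1) lie close together.

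HNF6 and NKX6.1 strength were only weakly related at dual regions. Across the 1330 dual regions the scores of HNF6 and NKX6.1 had a Spearman's rho of 0.115, between lists from separate libraries and days. In the highest decile of both lists stood 85 dual regions, where 350 were in that decile for HNF6 and 220 for NKX6.1. Below the median of both were 138, where 359 were below it for HNF6 and 502 for NKX6.1. Strong HNF6 met weak NKX6.1 (highest decile against below the median) at 107 dual regions, and strong NKX6.1 met weak HNF6 at 49. By quartile of HNF6 score, the median NKX6.1 percentile was 63.2 (52.3 to 69.3), 62.8 (56.8 to 69.3), 56.8 (52.3 to 64.1) and 70.6 (63.8 to 74.1) from lowest to highest, with the highest interval overlapping the others. The quartile cell with the most dual regions was the highest of both lists, with 292 (22.0%). These were also the fullest quartiles taken singly, with 645 dual regions for HNF6 and 523 for NKX6.1. How many would meet in each cell with unrelated scores was not computed.

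**Figure D2:**
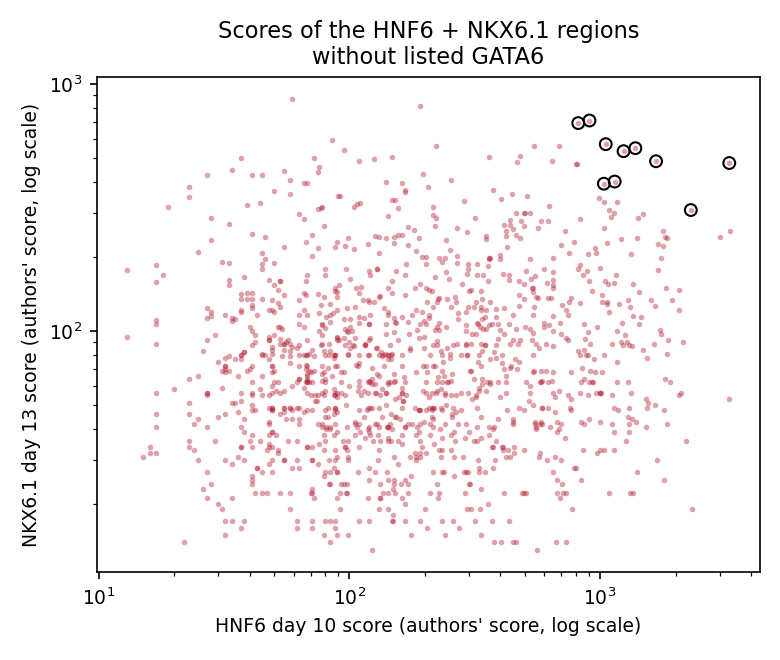
HNF6 day 10 score (horizontal axis) against NKX6.1 day 13 score (vertical axis) of the 1330 dual regions, both the authors' scores on log scales; each point is 1 region and open circles mark the 10 with the best mean percent rank. The points fill most of the plane, with a rho of 0.115, and the circled regions lie at the upper right.

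The dual region with the best mean of the percent ranks lay on chromosome 17 at chr17:72931676-72932073 (hg19, 1-based, as are all positions here), with scores of 3273 for HNF6 and 479 for NKX6.1. The NKX6.1 region of 181 bp lay wholly inside the HNF6 region of 398 bp, and their midpoints were 18.5 bp apart. The nearest listed GATA6 region was 468 kb away. This was a region where both factors were near the top of their lists and nearly centred on each other.

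Next came chr8:37005021-37005746 (HNF6 score 1671, NKX6.1 score 487), with midpoints 5 bp apart, and chr10:102809571-102810312 (1382 and 550), with midpoints 10 bp apart. At chr18:54532150-54532857 (HNF6 score 1240, NKX6.1 score 535) the neighbouring GATA6 peaks had consecutive numbers, and the nearer of them was 44.4 kb away. At chr4:65356292-65357040 (1053 and 571) the HNF6 region had 2 summits and the midpoints were 165.5 bp apart. Of these 10 leading dual regions, this was the one where the midpoints were farthest apart.

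The other 5 were chr2:222133519-222133979 (HNF6 score 907, NKX6.1 score 712), chr5:118560886-118561354 (2300 and 309), chr11:79815806-79816173 (1143 and 403), chr5:157898143-157898707 (818 and 695) and chr14:87186266-87186680 (1035 and 395). Those on chromosomes 11 and 14 also lay between consecutively numbered GATA6 peaks, at 19.9 and 79.0 kb from the nearer one. In each of these 5 the midpoints were 6 to 44.5 bp apart.

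The highest HNF6 score among dual regions was 3284, at chr12:54150666-54151220, where NKX6.1 scored 253 and the midpoints were 7 bp apart. High HNF6 did not come with high NKX6.1 throughout. At chr13:111719828-111720546 HNF6 scored 3259 and NKX6.1 53 (percentile 48.2), and at chr6:136866238-136866858 HNF6 scored 2316 and NKX6.1 19 (percentile 6.11). At chr19:28844081-28844832, with an HNF6 score of 3017 and an NKX6.1 score of 240, the nearest listed GATA6 region was 1952 kb away.

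The highest NKX6.1 score was 867, at chr4:90813517-90814041, where the HNF6 score of 59 was at percentile 36.8. There the NKX6.1 region of 205 bp shared only 83 bp with the HNF6 region, and its midpoint lay past the HNF6 edge, 221 bp from the HNF6 midpoint. At chr5:1601175-1601666 NKX6.1 scored 814 and HNF6 192 (percentile 78.3), with midpoints 12 bp apart. At chr12:113957463-113957688 NKX6.1 scored 596 and HNF6 85 (percentile 52.3). At the 5 dual regions with the highest NKX6.1 scores, the HNF6 percentile thus ran from 36.8 to 97.0.

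Dual regions were 2.05% of all merged regions with HNF6 and 9.11% of those with NKX6.1, and regions with all 3 factors were 1.204% and 5.35%. Among the strongest regions of the HNF6 list both kinds had larger shares, and regions with all 3 factors outnumbered dual ones. Of the 100 merged regions with the highest HNF6 scores, 4 (4.0%, 1.57 to 9.84) were dual, 30 (30.0%, 21.9 to 39.6) held all 3 factors, 40 held HNF6 and GATA6, and 26 held HNF6 alone. Among the 1000 highest, 68 (6.8%, 5.40 to 8.53) were dual and 160 (16.0%, 13.9 to 18.4) held all 3 factors. For NKX6.1 the intervals of both kinds stood apart among the 100 highest and overlapped among the 500 and the 1000 highest. Of the 100 highest NKX6.1 regions, 10 (10.0%, 5.52 to 17.4) were dual and 31 (31.0%, 22.8 to 40.6) held all 3 factors, whereas of the 1000 highest, 156 (15.6%, 13.5 to 18.0) were dual and 145 (14.5%, 12.5 to 16.8) held all 3. The remaining 59 of the first 100 held NKX6.1 alone.

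Within the regions that held HNF6 and NKX6.1, the share without listed GATA6 was lowest where HNF6 was strongest. It was 48.0% (44.4 to 51.6) in the highest HNF6 decile, 68.0% (62.8 to 72.8) in the next, and 69.5% (58.9 to 78.4) in the lowest, with the highest value, 80.5% (73.4 to 86.1), between percentiles 50 and 60. Against the NKX6.1 score it was 54.1% (49.2 to 58.8) in the highest decile and between 62.7% and 67.8% in the 4 bins below. For HNF6 the interval of the highest decile lay below those of all other deciles, whereas for NKX6.1 it overlapped that of percentiles 25 to 50, at 62.7% (58.0 to 67.2).

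**Figure D3:**
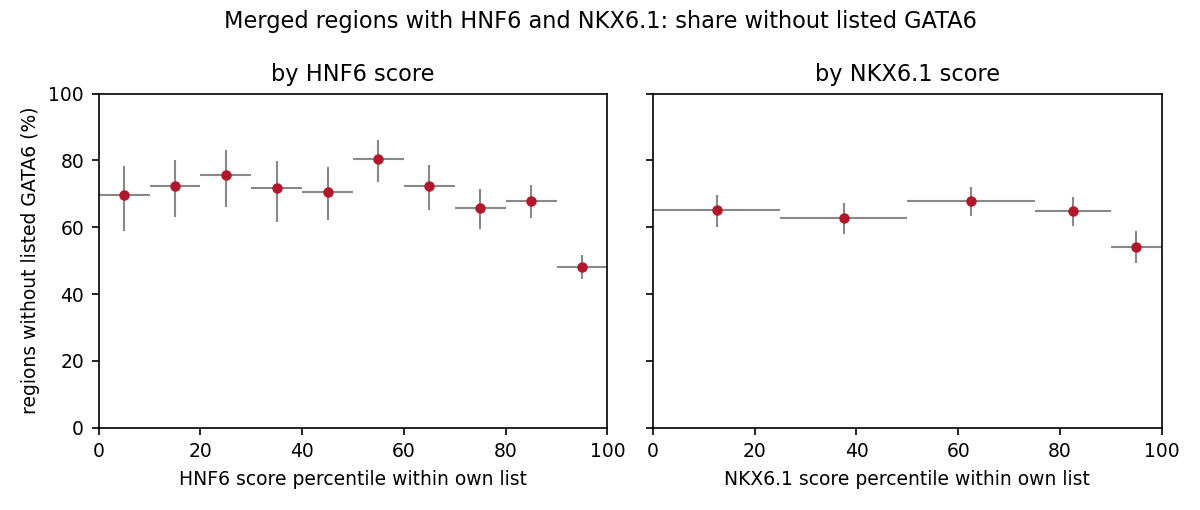
Share of merged regions with HNF6 and NKX6.1 that had no listed GATA6 region (vertical axis, percent) by HNF6 score percentile (left) and by NKX6.1 score percentile (right). Vertical bars are Wilson 95% intervals and horizontal bars span each bin; the share is 48.0% in the highest HNF6 decile and 54.1% in the highest NKX6.1 decile, below the other bins.

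Width moved with this share. HNF6 regions in dual regions had a median width of 314 bp (quartiles 247 and 401), against 253 bp with HNF6 alone and 415 bp with all 3 factors. Score and width of HNF6 had a rho of 0.74 across dual regions. The share without listed GATA6 was 83.6% (77.2 to 88.5) for HNF6 regions of up to 200 bp and 36.3% (31.8 to 41.1) for those over 500 bp. A wider region can meet a GATA6 region more easily by its length alone. Within the highest HNF6 decile the share was 64.1% (56.9 to 70.7) at widths over 300 and up to 400 bp and 42.4% (38.3 to 46.6) above 400 bp. Between percentiles 50 and 90 the share was 70.8% (65.9 to 75.3) and 49.4% (42.0 to 56.8) at these widths. Below the HNF6 median it was 56.7% (44.8 to 67.9) and 56.3% (39.3 to 71.8), without a fall from one width to the other. At widths over 300 and up to 400 bp the share was thus not lowest where HNF6 was strongest, and above 400 bp the intervals of the 3 score ranges overlapped. At up to 300 bp it was 75.8% (71.3 to 79.7) below the HNF6 median and 79.9% (75.4 to 83.7) between percentiles 50 and 90. The part of width in the result was not tested further.

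NKX6.1 regions in dual regions had a median width of 111 bp, against 97 bp with NKX6.1 alone and 130 bp with all 3 factors. Several summits in 1 HNF6 region were found at 56 dual regions (4.21%, 3.26 to 5.43), against 2.11% of all HNF6 regions, 1.46% (1.37 to 1.56) with HNF6 alone and 13.3% (11.1 to 15.9) with all 3 factors. For NKX6.1 the number was 22 (1.65%, 1.09 to 2.49), against 1.09% of its list, 0.737% (0.601 to 0.903) with NKX6.1 alone and 5.63% (4.22 to 7.48) with all 3 factors. Both widths and summits of dual regions thus lay between those of regions with 1 factor and those with all 3. With HNF6 and GATA6 but no NKX6.1, the median HNF6 width was 355 bp and 6.79% (6.15 to 7.49) had several summits. Both values were above those of dual regions.

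NKX6.1 midpoints lay nearer to the HNF6 midpoint than to the HNF6 edge at most dual regions. The rule itself limits the distance, since regions that overlap cannot have midpoints farther apart than the mean of their widths, a median of 219 bp here. Midpoints lay a median of 47.5 bp apart (order-statistic interval 44 to 51.5, quartiles 21 and 100), with 696 of 1330 (52.3%, 49.6 to 55.0) within 50 bp. The median offset was 22.1% of the largest that overlap allows. The sides were nearly even: NKX6.1 lay toward the higher coordinate at 685 dual regions and toward the lower at 644, and the midpoints coincided at 1. The whole NKX6.1 region lay inside the HNF6 region at 971 dual regions (73.0%, 70.6 to 75.3). Measured from the HNF6 midpoint to the HNF6 edge, 571 NKX6.1 midpoints (42.9%, 40.3 to 45.6) fell in the innermost 25% of that distance and 122 (9.17%, 7.74 to 10.8) in the outermost 25%. Another 125 (9.40%, 7.95 to 11.1) lay at or past the edge.

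Regions with all 3 factors had NKX6.1 farther from the HNF6 midpoint in base pairs. The median was 67 bp (61 to 76.5) over the 738 of 781 whose strongest HNF6 and NKX6.1 regions overlapped, and 40.8% (37.3 to 44.4) lay within 50 bp. As a percent of the distance from midpoint to edge the medians were 30.6 (28.4 to 32.8) for dual regions and 32.5 (29.6 to 35.9) with all 3 factors, with overlapping intervals. In the narrowest of 4 bins of HNF6 width, with 241 dual regions and 53 with all 3 factors, the medians were 44 bp (36 to 51.5) for dual regions and 34.5 bp (18.5 to 52.5) with all 3 factors, the opposite direction with overlapping intervals. In the next bin, up to 300 bp, they were 40.5 bp (35 to 46.5) and 42 bp (30.5 to 53.5), up to 400 bp they were 45.75 bp (39 to 54.5) and 57 bp (45 to 67), and above 400 bp they were 69.5 bp (59 to 83.5) and 94 bp (84.5 to 107). Only above 400 bp did the intervals stand apart.

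**Figure D4:**
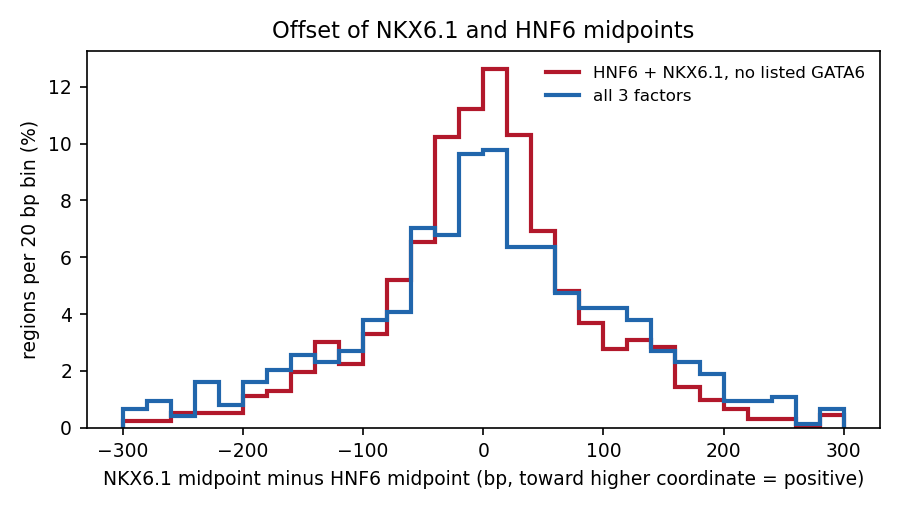
Signed distance from the HNF6 midpoint to the NKX6.1 midpoint (horizontal axis, bp) in bins of 20 bp, as percent of the regions in each class (vertical axis), for the 1330 dual regions and 738 regions with all 3 factors. Both distributions centre near 0, and 52.3% of dual regions against 40.8% of regions with all 3 factors lie within 50 bp; 8 dual regions and 21 with all 3 factors lie beyond 300 bp and are not drawn.

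As a percent of the distance to the HNF6 edge, the offset was smaller where HNF6 was stronger, and HNF6 was also wider there. From the lowest to the highest HNF6 quartile of its list, the median offset was 56.5, 49.75, 46.75 and 44.5 bp, while the median HNF6 width was 210, 223.5, 280 and 381 bp. As a percent of the distance to the edge the offset was 52.3, 41.7, 34.4 and 23.6. Across dual regions the offset in base pairs had a rho of -0.05 with the HNF6 score and 0.18 with the HNF6 width. Strong HNF6 regions were wider, yet the median offset in base pairs was not larger there.

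A few dual regions were far from centred. The largest offset, 501 bp, was at chr6:139910996-139912067, where the HNF6 region of 1042 bp had 3 summits and the NKX6.1 region had a score of 13, the lowest in its list. Offsets of 399.5 and 377.5 bp were found at chr16:83889869-83890693 and chr12:125477307-125478062, each with a single HNF6 summit. The next, 340 and 329.5 bp at chr13:35960834-35961999 and chr1:71132945-71133880, again had 3 summits each. Of the 5 largest offsets, 3 were thus in HNF6 regions with several summits.

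A small part of the dual regions lay at the edge of the rule. At chr12:125477307-125478062 and chr4:71048371-71048956 the factors shared 1 bp, and at chr1:60406112-60406447 they shared 2 bp. In all, 35 dual regions shared fewer than 20 bp. Just outside, NKX6.1 regions at chr1:168289561-168289636 (score 17), chr21:24375699-24375828 (score 34) and chr6:46285487-46285618 (score 29) touched the edge of an HNF6 region without sharing a base, and 59 lay within 20 bp of one. On the GATA6 side, the dual regions nearest to a listed GATA6 region were 90 bp away at chr5:134523058-134523279, 155 bp at chr10:5090716-5091140 and 172 bp at chr6:157006979-157007980. Just across that limit, GATA6 overlapped another region by 1 bp at chr6:99172168-99172776 and chr9:114220686-114221184 and by 3 bp at chr1:239888637-239889099, all of which count as regions with all 3 factors.

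The HNF6 list of day 5 held only 250 regions, so few merged regions of any class could overlap one. Of the 1330 dual regions, 1 (0.0752%, 0.0133 to 0.425) overlapped an HNF6 region of day 5, against 0.347% of all HNF6 regions of day 10 and 0.272% (0.233 to 0.318) of regions with HNF6 alone. Both of these lie within the interval of the dual regions, whose count was thus not distinguishable from the background. It lay at chr3:22162533-22163060, with an HNF6 score of 1519 on day 10, an NKX6.1 score of 53, and a day 5 score of 176. Among regions with all 3 factors the number was 6 of 781 (0.768%, 0.353 to 1.67), and with HNF6 and GATA6 but no NKX6.1 it was 62 of 5434 (1.14%, 0.891 to 1.46). Merged regions with a day 5 region were concentrated at high day 10 scores, with 1.49% (1.23 to 1.82) in the highest HNF6 decile and 0.219% (0.184 to 0.261) below it, so that decile was also taken alone. There 1 of 350 dual regions (0.286%, 0.0505 to 1.60), 6 of 379 with all 3 factors (1.58%, 0.728 to 3.41) and 52 of 3849 with HNF6 alone (1.35%, 1.03 to 1.77) had a day 5 region. The intervals overlap, so a difference within that decile was not detectable with these counts. Of the 980 dual regions in the lower deciles 0 had one, which allows a share of up to 0.306% (3 counts of the total). In these deciles the share was 0.195% (0.161 to 0.236) with HNF6 alone and 0.683% (0.459 to 1.01) with HNF6 and GATA6.

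Dual regions lay at a median of 142.9 kb from the nearest listed GATA6 region (quartiles 53.2 and 306.5 kb). Within 1 kb of one were 21 (1.58%, 1.04 to 2.40), within 10 kb 105 (7.89%, 6.56 to 9.47) and within 100 kb 527 (39.6%, 37.0 to 42.3). Regions with HNF6 alone were within 10 kb in 8.46% (8.24 to 8.69) and within 100 kb in 42.5% (42.1 to 42.9), and those with NKX6.1 alone in 6.20% (5.79 to 6.64) and 40.2% (39.4 to 41.1). Regions with all 3 factors had a further GATA6 region within 100 kb in 50.6% (47.1 to 54.1), counted between midpoints, where dual regions had one in 39.5% (36.9 to 42.1). Counted the same way, the share was 46.7% (45.3 to 48.0) with HNF6 and GATA6 but no NKX6.1. It was 42.5% (42.1 to 42.9) with HNF6 alone and 40.3% (39.4 to 41.1) with NKX6.1 alone. Classes with a listed GATA6 region thus had another nearby more often than dual regions. The same GATA6 list split the classes and was counted around them, so this is a description of that list.

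Other HNF6 regions were likewise less frequent near dual regions than near regions with all 3 factors. Another merged region with HNF6 had its midpoint within 10 kb of 671 dual regions (50.5%, 47.8 to 53.1), against 63.4% (59.9 to 66.7) with all 3 factors and 48.2% (47.8 to 48.6) with HNF6 alone. Another NKX6.1 region was within 10 kb of 203 dual regions (15.3%, 13.4 to 17.3), against 17.5% (15.0 to 20.4) with all 3 factors and 14.3% (13.7 to 15.0) with NKX6.1 alone. At that distance the intervals for NKX6.1 overlapped, whereas within 100 kb another NKX6.1 region was near 67.8% (65.3 to 70.3) of dual regions and 74.1% (71.0 to 77.1) of regions with all 3 factors. Within 100 kb, 93 dual regions (6.99%, 5.74 to 8.49) had a region with all 3 factors nearby. The same share was 8.69% with HNF6 and GATA6, 8.35% with HNF6 alone and 7.52% with NKX6.1 alone. Of the regions with all 3 factors, 98 (12.5%, 10.4 to 15.1) had another of their own kind within 100 kb. Another dual region was that near to 166 dual regions (12.5%, 10.8 to 14.4). A dual region was also that near to 11.6% (11.4 to 11.9) of regions with HNF6 alone and 11.1% (10.6 to 11.7) with NKX6.1 alone. Dual regions thus had another of their own kind about as often as these classes had a dual region nearby. For regions with all 3 factors, the share of 12.5% was above the 8.35% and 7.52% of these classes. The shares of both kinds are not directly comparable, because dual regions are more numerous. Of the regions with all 3 factors, 103 (13.2%) had a dual region within 100 kb.

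Dual regions were mostly scattered singly. Neighbouring dual regions were a median of 1278 kb apart (quartiles 484 and 2789 kb), and 100 of the 1330 (7.52%) had another within 50 kb. Counted between midpoints, the share was 7.37% (6.08 to 8.90). A dual region was that near to 6.33% (6.13 to 6.53) of regions with HNF6 alone and 6.03% (5.63 to 6.46) with NKX6.1 alone. With all 3 factors it was 6.53% (5.00 to 8.48), so the scatter was much the same around each class. Joined at gaps of up to 50 kb, 1230 stood alone, 47 groups had 2 dual regions and 2 groups had 3. The tighter group of 3 spanned 50.3 kb at chr18:54528368-54578683, with 10 HNF6 regions, 3 NKX6.1 regions and 1 listed GATA6 region. From low to high coordinate, its dual regions had HNF6 scores of 27, 1240 and 123 and NKX6.1 scores of 429, 535 and 61, and the last was 0.724 kb from the listed GATA6 region. In the other group of 3, at chr6:144868474-144935238, each HNF6 region was weak, with scores of 32, 15 and 68, the NKX6.1 scores were 15, 31 and 64, and 0 GATA6 regions were listed. The 2 groups thus differed in strength as well as in listed GATA6.

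On a grid of 1 Mb, 766 windows held 1 dual region, 208 held 2, 37 held 3, 8 held 4 and 1 held 5. The window with 5, chr5:118000001-119000000, had 35 HNF6, 9 NKX6.1 and 3 listed GATA6 regions and 0 regions with all 3 factors. Its strongest dual region was that at chr5:118560886-118561354, described above. The other 4 had HNF6 scores of 95, 207, 268 and 43 and NKX6.1 scores of 112, 147, 89 and 28, at offsets of 5.5, 17.5, 142 and 23 bp. At chr6:136000001-137000000, with 4 dual regions, 31 HNF6 and 6 NKX6.1 regions were listed and 0 GATA6 regions.

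**Figure D5:**
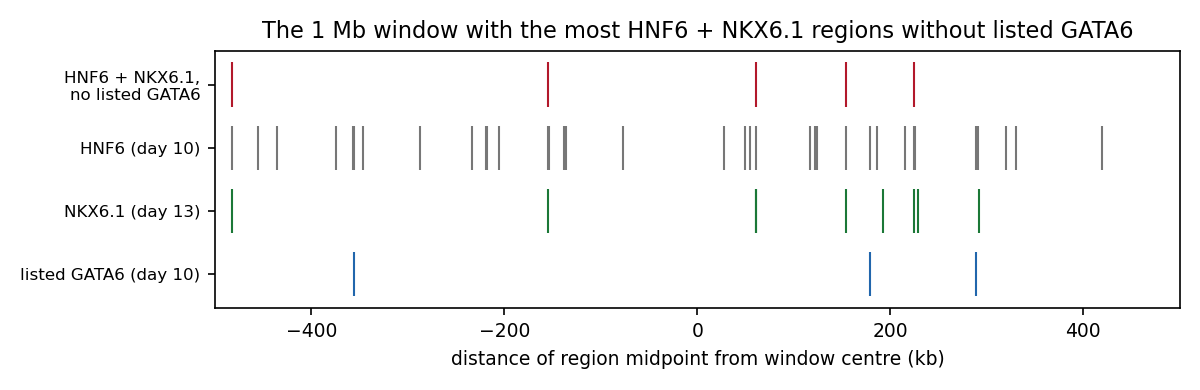
Midpoints of the dual regions (top row) and of all listed HNF6, NKX6.1 and GATA6 regions (rows below) in the 1 Mb window with the most dual regions; the horizontal axis is the distance from the window centre in kb, and each line is 1 region. The 5 dual regions are spread over the window among 35 HNF6, 9 NKX6.1 and 3 listed GATA6 regions.

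Over the chromosomes dual regions were spread much like the lists they came from. Chromosome 2 held 117 (8.80%, 7.39 to 10.4) of them, against 9.06% of HNF6 and 9.79% of NKX6.1 regions, and chromosome 5 held 114 (8.57%, 7.18 to 10.2), against 7.29% and 7.38%. Chromosome 4 held fewer, with 79 (5.94%, 4.79 to 7.34) against 7.57% of HNF6 and 7.87% of NKX6.1 regions, both above the interval. Chromosome X held 13 (0.977%, 0.572 to 1.67), below its 2.05% of HNF6 regions and close to its 0.876% of NKX6.1 regions. Of the regions with both factors, the share without listed GATA6 was 48.6% (37.6 to 59.8) on chromosome 15 and 70.4% (60.7 to 78.5) on chromosome 13. These were picked from 23 chromosomes, after seeing the values, as a low and a high value among those with more than 70 such regions, so their gap is a description.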

How the data were processed

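Per the submitters' processing notes, reads were handled with Bowtie2 2.3.4.1 and MACS2 2.1.1.20160309 on hg19, with no step or setting assigned to either tool. For each library the authors deposited a headerless peak list with a whole-number score, whose unit no source used here gives. The extraction protocol names only an NKX6.1 antibody, per the labels' protocols, and factors were taken from the titles. Depth is unknown from the lists, as is the false discovery rate. Rows with equal start and end were joined to 1 region with the highest score and counted as summits.

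Overlap, percentiles and offsets were computed in Python (3.11.15) with pandas (2.3.3) and numpy (2.4.6). In merged regions with several regions of a factor the highest score was used. Midpoints stood in for summits. Intervals are Wilson (statsmodels 0.14.6) for shares and exact binomial order statistics (scipy 1.17.1) for medians, at 95%. The code was tested on simulated data, and bedtools 2.31.1 gave the same 2099 HNF6 and NKX6.1 pairs. With 1 library per group no test applied.

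The dual regions, gene lists and rules were chosen with earlier results of these data known. Named are the 10 dual regions with the best mean percent rank, the 5 highest by each score, the 5 largest offsets and 3 on each side of the overlap limits. Clusters and windows were chosen by count. Position relative to genes, nearby genes and motifs were planned and not run, since the gene tables at hand are on GRCh38 and the lists on hg19, so regions are named by position alone and no sequence is shown. The input libraries were not analysed here.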

Additional observations from a re-analysis of the deposited data

How the results depend on the processing

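The number of dual regions was 1209 with 50% of the shorter region covered, 1315 with midpoints within 200 bp, 1331 and 1337 counted as HNF6 and NKX6.1 regions, 1330 with rows kept apart, and 1309 and 1225 with no listed GATA6 within 1 and 10 kb. It fell to 607 above the median score of both lists and to 757 at scores of at least 50, as fewer regions enter. With these 2 limits the median HNF6 percentile was 86.3 and 81.6 and that of NKX6.1 81.4 and 79.9, which follows from cutting weak regions. The median offset was 42.5 bp above the median scores, 45.5 bp at scores of at least 50 and 41.5 bp with 50% covered. In the 170 dual regions between consecutively numbered GATA6 peaks, a choice added after seeing the data, the HNF6 percentile was 77.5 (69.9 to 83.3), the NKX6.1 percentile 67.6, the offset 54.25 bp (40 to 63) and the number with a day 5 region 0. No paired analysis was possible because each group has 1 library. With no read depth in the lists, whether a factor missing from a list was absent or below detection is unknown.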
